A study of Homo sapiens with 6 samples.

Results

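The 10 genes described here encode the 4 Rag GTPases (RRAGA, RRAGB, RRAGC and RRAGD), folliculin and its partners (FLCN, FNIP1 and FNIP2) and 3 TFE transcription factors (TFE3, TFEB and MITF). They were taken by symbol, and all 10 were among the 36458 symbols of the count table. RNA carrying a poly(A) tail was sequenced from DMS114, an established human line of small cell lung cancer cells. 3 samples labelled β-alanine had received the amino acid at 2.5 mM for 48 h, and 3 labelled Control had received an equal volume of vehicle. The labels name no genetic change, and all 6 libraries are from this 1 line.

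The Rag proteins are small GTPases on the lysosome surface, where RagA or RagB pairs with RagC or RagD. When amino acids are plentiful the pair recruits the kinase complex mTORC1. Folliculin, bound to FNIP1 or FNIP2, is the GTPase-activating protein for RagC and RagD, and the active pair presents TFEB and TFE3 to mTORC1, which phosphorylates them and keeps them in the cytosol. Unphosphorylated TFE factors enter the nucleus and bind E-boxes in promoters of lysosome and autophagy genes, and RRAGD, RRAGC, FLCN, FNIP1 and FNIP2 have themselves been described as TFE targets. Transcript levels, which are what was measured here, do not show phosphorylation or location of these proteins.

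Of the 10 transcripts, 3 rose after β-alanine and none fell. RRAGD had the largest change of the 10, TFE3 the smallest p-value, and RRAGC a small rise that was absent from 1 of the 3 treated libraries. FLCN was slightly lower in each treated library, and RRAGA and MITF slightly higher, but none of the 3 passed the test. RRAGB, FNIP1, FNIP2 and TFEB overlapped between the groups. The count of 3 in 10 is close to the background, since 27.9% of all 17331 tested genes were called, 14.1% as higher and 13.8% as lower. It is therefore not a result about the 10 genes as a group. At an unadjusted p under 0.05, 5 members were higher and 1 was lower in edgeR. DESeq2 called 2 higher and 0 lower, and limma-voom 3 and 0. The median log2 change was 0.11 over the members and -0.0032 over all genes tested.

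Total counts were between 14433801 and 32909568 in β-alanine libraries and between 18814876 and 22072654 in controls, so β-alanine library 1 was the shallowest and library 3 the deepest. On the first principal component β-alanine library 1 lay at -6.09, and libraries 2 and 3 at -18.9 and -18.7, against 12.8 to 15.7 in the controls. The labels do not say whether replicates were separate cultures, so p-values reflect only how much these samples vary, and that variation may be technical. Levels are given as CPM, reads scaled to a common library size. Among lung cancer markers, YAP1 averaged 129 CPM in treated and 124 CPM in control cells, SYP 86.3 and 61.0 CPM, and UCHL1 57.1 and 42.6 CPM. The summed level of 5 endothelial markers was 0.209 to 0.328 CPM in treated and 0.227 to 0.379 CPM in control libraries, and that of 5 leukocyte markers 0.292 to 0.689 and 0.541 to 0.612 CPM. The 6 fibroblast markers, of which this line carries COL3A1 and DCN at high level, summed to 908 to 1009 CPM in treated and 1140 to 1184 CPM in control libraries. 3 of the 5 fibroblast markers tested fell and 1 rose, or 80% called against 27.9% of all tested genes. The part of these markers in the results below was not tested.

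RefSeq promoter windows on GRCh38.p14, each from 250 bases before to 50 after an annotated start, were available for 8 of the 10 genes. RRAGA and RRAGD had no window, so their promoters were not searched. The letters searched were the E-box CACGTG, which reads the same on both strands, and TCACGTGA, the same E-box with T before and A after it, which is the core of the motif described for TFE factors in lysosomal promoters. Every match to the longer motif is also a match to the shorter one. CACGTG was found in 3 of the 8 genes (37.5%), against 8.77% of 27305 genes with a window, and TCACGTGA in 1 of the 8, against 1.18%. The 3 genes with a match are shown because they carry the letters that the TFE factors recognise; capitals mark CACGTG. RRAGB (chrX:55717499-55717748, plus strand), RRAGC (chr1:38859773-38860022, minus strand) and FNIP1 (chr5:131797018-131797267, minus strand) read as follows, 5′ to 3′ along the gene, in the 250 bases before the start.
RRAGB: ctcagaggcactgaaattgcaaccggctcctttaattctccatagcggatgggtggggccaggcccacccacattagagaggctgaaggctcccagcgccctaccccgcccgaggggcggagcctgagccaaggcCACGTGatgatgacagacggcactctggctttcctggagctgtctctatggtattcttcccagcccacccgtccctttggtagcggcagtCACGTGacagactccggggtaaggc
RRAGC: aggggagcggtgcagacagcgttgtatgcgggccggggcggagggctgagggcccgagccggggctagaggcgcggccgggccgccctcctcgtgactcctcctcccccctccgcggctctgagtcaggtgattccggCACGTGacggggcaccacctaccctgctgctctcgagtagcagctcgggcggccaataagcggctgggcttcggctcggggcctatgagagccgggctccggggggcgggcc
FNIP1: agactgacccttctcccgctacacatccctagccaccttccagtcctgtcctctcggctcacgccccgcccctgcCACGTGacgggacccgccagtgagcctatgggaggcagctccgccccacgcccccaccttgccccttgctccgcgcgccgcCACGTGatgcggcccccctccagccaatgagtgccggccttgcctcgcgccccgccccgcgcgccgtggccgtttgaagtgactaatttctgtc
The E-boxes began 115 and 25 bases before the start of RRAGB, 112 bases before that of RRAGC, and 175 and 94 bases before that of FNIP1. The one 25 bases before the start of RRAGB was the only match to TCACGTGA, and RRAGB also held a CACGTG just after its start, not shown. RRAGC is 1 of the 3 genes that rose, and RRAGB and FNIP1 did not pass the test. No match in the windows of FLCN, FNIP2, TFE3, TFEB or MITF means only that these letters are not in the stretches searched.

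**Figure D1:**
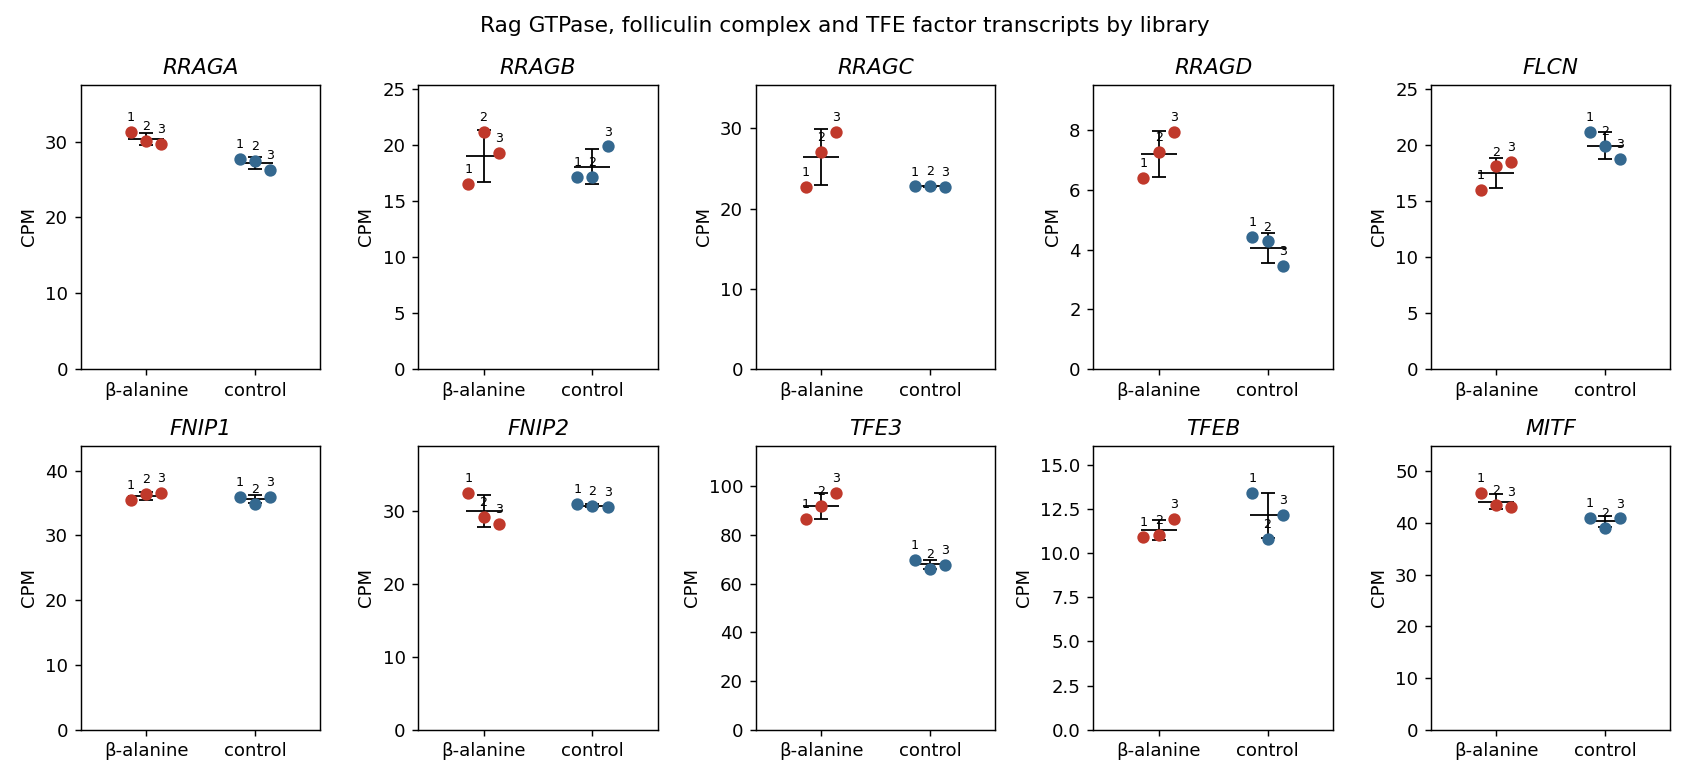
Scaled counts (CPM, TMM) of each transcript in the 3 β-alanine (red, left) and 3 control (blue, right) libraries, numbered by replicate; bars are the mean and SD, and every axis starts at 0. RRAGD, TFE3, RRAGA and MITF lie wholly above the controls and FLCN wholly below. Groups did not overlap in 39.1% of all tested genes. The RRAGC value of β-alanine library 1 lies among the controls.

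Among the Rag GTPases, RRAGD, one of the 2 genes for the RagC/D side of the pair, was covered by 92, 200 and 265 reads after β-alanine and by 82, 94 and 68 reads in controls, each in the order of libraries 1 to 3. Scaled to library size these were 6.40, 7.29 and 7.94 CPM after β-alanine, against 4.43, 4.28 and 3.47 CPM in controls. All 3 treated libraries lay above all 3 controls, with the highest value in library 3. The rise was 1.80-fold, a log2 change of 0.85 ± 0.14 (SE), called as a rise (adjusted p = 7.64e-05 in the quasi-likelihood test of edgeR). In RNA from whole cultures, more cells of a type and more RNA per cell cannot be told apart. In absolute size the rise was larger than the change of 98.0% of tested genes. RRAGD was the least abundant of the 10 transcripts per length of exon in both groups. RRAGD lies on chromosome 6 from 89364636 to 89412270 on the minus strand (GRCh38, GENCODE 29), with no other annotated gene over its exons.

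RRAGC, the other gene for that side of the pair and the more abundant one, had 22.7, 27.0 and 29.5 CPM in β-alanine libraries 1, 2 and 3 and 22.8, 22.8 and 22.7 CPM in controls. Library 1 of the treated group stood at the control level, so the groups overlapped, and only libraries 2 and 3 were higher. The log2 change was 0.24 ± 0.08 (SE), called as a rise (adjusted p = 0.0305 in edgeR). It was no longer called in edgeR when β-alanine library 3 was left out (adjusted p = 0.272, a log2 change of 0.14), or β-alanine library 2 (0.105), or control library 1 (0.0774), 2 (0.107) or 3 (0.0923). Left without β-alanine library 1, it stood at 0.31 (0.000261). DESeq2 did not call it on all 6 libraries (adjusted p = 0.0804), nor did edgeR after thinning to the smallest library (0.0648), and over all alternatives the adjusted p ran from 0.000261 to 0.272. In GENCODE 29 the transcript AL139260.2 covers 22.9% of the exon bases of RRAGC on the same strand, but it is not among the symbols of the count table. How the authors' counting treated such reads is not given in the sources used here, so the RRAGC count is uncertain.

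RRAGA, the main gene for the RagA/B side, had 31.3, 30.2 and 29.8 CPM after β-alanine and 27.7, 27.5 and 26.3 CPM in controls. The groups did not overlap, which was also true of 39.1% of all tested genes. The log2 change of 0.16 ± 0.06 (SE) missed the threshold (adjusted p = 0.0672 in edgeR), although it passed on library totals alone (0.0439) and after thinning (0.0204). RRAGB, its close relative, had 16.6, 21.2 and 19.3 CPM after β-alanine and 17.2, 17.1 and 19.9 CPM in controls, with overlapping groups and a log2 change of 0.09 ± 0.09 (SE). The transcripts of RRAGA and RRAGB shared no stretch of 50 bases in GENCODE 29, with each other or with another gene.

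The folliculin complex had no called member. In edgeR, 0 of its 3 genes were higher and 1 was lower at an unadjusted p under 0.05, and DESeq2 and limma-voom called 0. FLCN, the catalytic subunit and a tumour suppressor lost in Birt-Hogg-Dubé syndrome, had 16.0, 18.1 and 18.5 CPM after β-alanine and 21.1, 19.9 and 18.8 CPM in controls. Every treated library was below every control, by a narrow margin between β-alanine library 3 and control library 3. The log2 change was -0.17 ± 0.08 (SE, adjusted p = 0.117 in edgeR). Of the 10 members, 4 lay wholly above and 1 wholly below the controls, against 19.9% and 19.2% of tested genes. FLCN shares 11.9% of its exon bases with the same-strand gene AC055811.2, which itself had 1 to 5 reads per library, so its count is uncertain.

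FNIP1, the more abundant partner per length of exon, had 35.4, 36.4 and 36.6 CPM after β-alanine and 35.9, 34.8 and 36.0 CPM in controls, a log2 change of 0.02 ± 0.06 (SE). FNIP2, the alternative partner, had 32.5, 29.2 and 28.3 CPM after β-alanine and 31.0, 30.7 and 30.6 CPM in controls, a log2 change of -0.05 ± 0.07 (SE). Both overlapped between the groups, and neither sign held: after thinning to the smallest library FNIP1 stood at -0.0058 and FNIP2 at 0.0023. The treated FNIP2 libraries were spread around the controls, with library 1 above and libraries 2 and 3 below them.

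Of the transcription factors, TFE3 was the most abundant, with 1245, 2524 and 3246 reads after β-alanine and 1293, 1453 and 1331 reads in controls. This gave 86.7, 92.1 and 97.3 CPM after β-alanine and 69.9, 66.1 and 67.9 CPM in controls. The groups were far apart relative to their spread, at 92.0 ± 5.30 CPM in treated and 68.0 ± 1.91 CPM in control libraries (SD, n = 3 each). The rise was 1.36-fold, a log2 change of 0.44 ± 0.05 (SE, adjusted p = 1.46e-06 in edgeR), and across the alternatives the adjusted p ran from 4.72e-17 to 0.000262. Set against the mean of the controls, the 3 treated libraries stood at log2 differences of 0.35, 0.44 and 0.52 for TFE3, 0.66, 0.85 and 0.97 for RRAGD, and -0.0042, 0.25 and 0.37 for RRAGC. Library 1 had the smallest difference for each of these 3 genes. TFE3 lies on chromosome X from 49028726 to 49043486 on the minus strand (GRCh38, GENCODE 29).

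TFEB, the family member best known for lysosome biogenesis, had 10.9, 11.0 and 11.96 CPM after β-alanine and 13.4, 10.8 and 12.2 CPM in controls. The treated values lay inside the control range, with a log2 change of -0.09 ± 0.10 (SE). MITF, the melanocyte factor of the family, had 45.8, 43.5 and 43.1 CPM after β-alanine and 41.0, 39.1 and 40.9 CPM in controls. All treated libraries were above all controls, but the log2 change of 0.12 ± 0.06 (SE) did not pass (adjusted p = 0.0986 in edgeR), and a gene total does not show which MITF start or isoform was read. Of 10 listed genes described as MITF targets in melanocytes, 9 were analysed here and 5 were tested. None of the 5 was called higher or lower, while 27.9% of all tested genes were called. Of the 5, 1 was higher and 0 were lower at an unadjusted p under 0.05 in edgeR, and DESeq2 and limma-voom called 0. Their log2 changes ran from -0.30 to 0.62 with a median of 0.0028. That median is the value of CDK2, which averaged 121 CPM in treated and 120 CPM in control libraries. The other tested genes had group means of only 0.397 to 2.40 CPM, so the lack of calls says little about them. The highest change was that of the melanosome gene PMEL, at 2.25 ± 0.888 CPM in treated and 1.51 ± 0.416 CPM in control libraries (SD, n = 3 each).

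**Figure D2:**
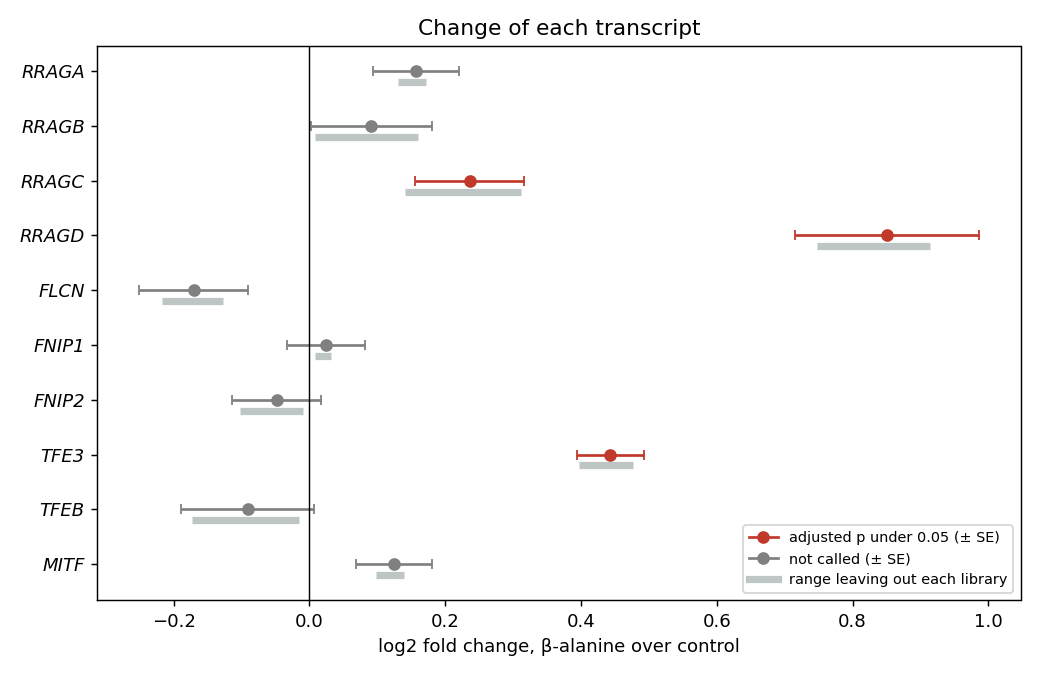
The log2 fold change of each transcript, β-alanine over control, with its SE (points and thin lines); red points passed an adjusted p of 0.05 in edgeR, and the grey bar below each is the range when each library was left out in turn. RRAGD (0.75 to 0.91) and TFE3 (0.40 to 0.48) kept their size, and the RRAGC range ran from 0.14 to 0.31.

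Ratios between related transcripts do not depend on how libraries are scaled. For 6 such pairs an exact two-sided permutation test over the libraries was made, which with 3 against 3 cannot give a p below 0.1. There were 0.282, 0.270 and 0.269 RRAGD reads per RRAGC read after β-alanine and 0.195, 0.187 and 0.153 in controls, without overlap (exact permutation p = 0.1, the smallest possible, and 0.15 adjusted over the 6 pairs), so the difference did not pass the test. The ratio was as high in β-alanine library 1, where RRAGC itself was at the control level, as in the others. TFE3 reads per TFEB read were 7.93, 8.36 and 8.14 after β-alanine and 5.21, 6.11 and 5.57 in controls, and TFE3 reads per FLCN read were 5.41, 5.09 and 5.26 against 3.31, 3.32 and 3.62. Both sets separated by group but could not pass the test (exact permutation p = 0.1, 0.15 adjusted). TFE3 reads per MITF read, at 1.89, 2.12 and 2.26 after β-alanine and 1.70, 1.69 and 1.66 in controls, also did not overlap. RRAGB over RRAGA (exact permutation p = 0.6) and FNIP2 over FNIP1 (exact permutation p = 0.5) overlapped.

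**Figure D3:**
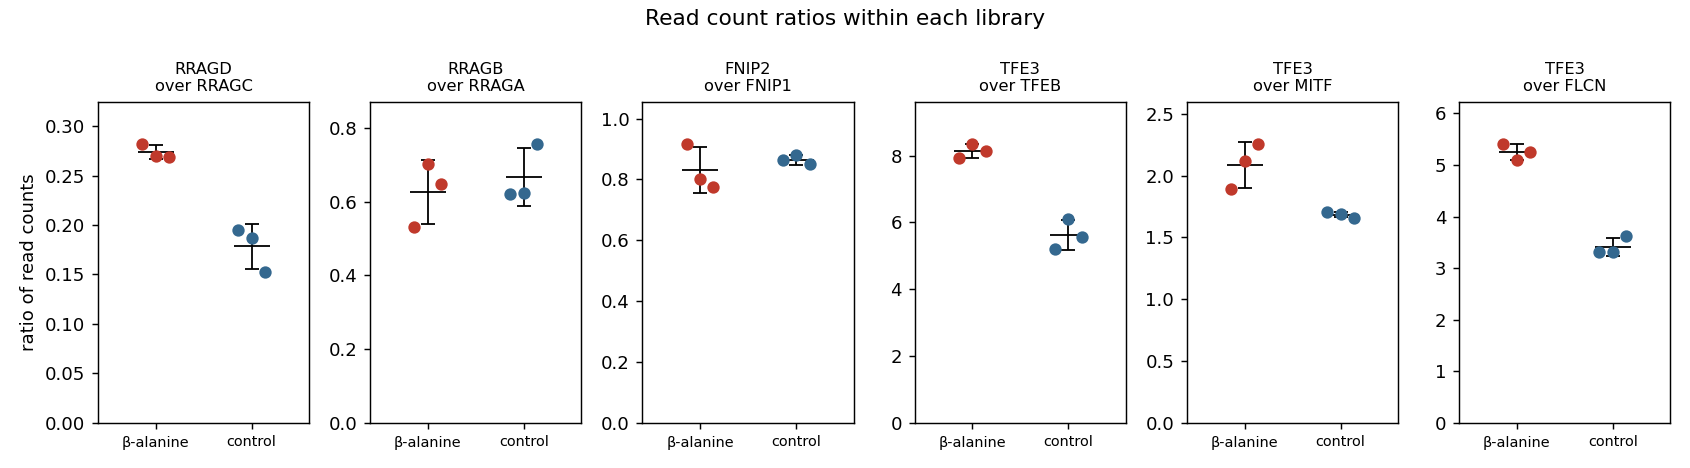
Reads of one gene per read of another in the same library, for 6 pairs, in β-alanine (red, left) and control (blue, right) libraries; bars are the mean and SD (n = 3 each) and axes start at 0. RRAGD over RRAGC averages 0.274 in treated and 0.178 in control libraries, and the 3 ratios with TFE3 on top also separate.

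Levels can be compared between genes only per length of exon, for which the CPM were divided by the union of exons in GENCODE 29. TFE3 stood at 21.5 ± 1.24 CPM per kilobase in treated and 15.9 ± 0.446 in control libraries, and RRAGA at 19.1 ± 0.489 and 17.1 ± 0.501 (SD, n = 3 each), so RRAGA was the highest of the 10 in controls and TFE3 in treated cells. RRAGB followed at 6.98 ± 0.847 and 6.63 ± 0.576 CPM per kilobase, and MITF at 6.14 ± 0.206 and 5.62 ± 0.149. RRAGC was at 5.11 ± 0.668 in treated and 4.41 ± 0.0137 in control libraries, and FNIP1 at 4.55 ± 0.0756 and 4.48 ± 0.0808. FNIP2 (2.76 and 2.83), TFEB (2.00 and 2.15), FLCN (1.79 and 2.04) and RRAGD (1.42 and 0.800, treated and control means) were lowest. In controls the ranges of FNIP1 and RRAGC overlapped, as did those of TFEB and FLCN, and the other neighbours in this order did not. Transcripts that use only some of the annotated exons are understated on this scale.

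In the next 3 groups, whose products anchor the Rag pair or switch it, calls can be read beside the 14.1% of all tested genes that rose and the 13.8% that fell. Of 6 genes for Ragulator, the lysosomal anchor of the Rags, and the arginine-sensing transporter SLC38A9, 1 rose and none fell (0 lower at an unadjusted p under 0.05 in edgeR, and 0 by DESeq2 and limma-voom). LAMTOR3 had 25.8, 30.2 and 26.7 CPM after β-alanine and 22.0, 25.0 and 24.1 CPM in controls (adjusted p = 0.0284 in edgeR). With DESeq2, or when any of β-alanine 2, control 1 and control 3 was left out, it was not called, leaving 0. LAMTOR1, which tethers the complex to the membrane, was at 37.7 ± 2.50 CPM in treated and 40.3 ± 0.814 CPM in control libraries (SD, n = 3 each) and was not called. Of 7 genes for GATOR1, which switches RagA/B off, and its scaffold KICSTOR, KPTN rose by a log2 of 0.45 ± 0.08 (SE) and NPRL3 fell, with a change of -0.20 ± 0.05, and the other 5 were not called. Without β-alanine library 3 the NPRL3 call was lost (adjusted p = 0.06 in edgeR), and without β-alanine library 1 the list had 2 rises. Of 5 genes for GATOR2, the opponent of GATOR1, SEH1L, also a nuclear pore subunit, rose by 0.22 ± 0.05, and none fell (0 at an unadjusted p under 0.05 in edgeR, and 0 by DESeq2 and limma-voom).

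Of 8 cytosolic amino acid sensors, 1 rose and 2 fell, or 37.5% called against 27.9% of all tested genes. SESN2, a leucine sensor, was at 47.9 ± 1.81 CPM in treated and 42.1 ± 0.537 CPM in control libraries, without overlap (SD, n = 3 each, adjusted p = 0.0156 in edgeR), and lost its call without control library 2 (0.0502) or 3 (0.0681). SAR1B, a coat GTPase described as a leucine sensor, had 32.5, 33.2 and 32.6 CPM after β-alanine and 44.2, 39.8 and 42.0 CPM in controls, a log2 change of -0.36 ± 0.06 (SE) that was called under every alternative run. SESN3 changed by -0.23 ± 0.08 (adjusted p = 0.0447 in edgeR), a call lost without any one of 5 libraries, the exception being β-alanine library 1.

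Of 9 genes for mTORC1, its activator RHEB and the TSC complex that restrains RHEB, 3 rose and 2 fell, or 55.6% called against the 27.9%. RHEB had 105, 101 and 97.1 CPM after β-alanine and 90.4, 82.6 and 81.9 CPM in controls. MTOR, the kinase, had 271, 275 and 280 CPM after β-alanine and 250, 239 and 246 CPM in controls. These changes were small, at log2 values of 0.25 ± 0.05 and 0.17 ± 0.04 (SE), and both were called under every alternative run. MLST8, a subunit that binds the kinase domain, changed by -0.17 ± 0.05, and AKT1S1, an inhibitory subunit, rose by 0.16 ± 0.05. AKT1S1 was not called by DESeq2 (adjusted p = 0.0557), nor by edgeR when β-alanine library 2 (0.128) or control library 1 (0.0828), 2 (0.0511) or 3 (0.0696) was left out. The falls numbered 0 when any of β-alanine 2, β-alanine 3, control 1 and control 2 was left out, and 1 when control library 3 was.

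Genes whose products act on the Rags or on folliculin included the AMP-activated kinase, which phosphorylates FNIP1, and the GABARAP proteins, which bind the folliculin complex at damaged or stressed lysosomes. Of 13 such genes 5 rose and 3 fell, or 61.5% called against the 27.9%, with a median log2 change of 0.09. GABARAPL1 had 68.5, 73.9 and 76.3 CPM after β-alanine and 52.5, 48.2 and 50.2 CPM in controls, and GABARAP had 15.6, 18.9 and 18.5 against 13.3, 11.96 and 12.6 CPM. PRKAA2, a catalytic subunit of AMP-activated kinase, had 23.7, 21.1 and 19.9 CPM after β-alanine and 32.3, 31.7 and 29.6 CPM in controls. The subunit gene PRKAB2 changed by a log2 of -0.28 ± 0.05 (SE, adjusted p = 0.000304 in edgeR). Other subunits of the kinase differed in direction: PRKAB1 rose by 0.14 ± 0.05 (adjusted p = 0.0388 in edgeR) and PRKAG1 by 0.20 ± 0.05 (0.00509), while PRKAA1 stood at -0.09 ± 0.04 and was not called (0.137). The PRKAB1 call was lost with DESeq2 and with any single library other than β-alanine 1 left out, and that of PRKAG1 once β-alanine library 3 (adjusted p = 0.0628 in edgeR) or control library 2 (0.0647) was. The 2 GABARAP genes, PRKAA2 and PRKAB2 were called under every alternative run, and the number that rose was 3 once β-alanine library 3 or control library 2 was left out.

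Genes for the calcineurin subunits that dephosphorylate TFE factors, the 14-3-3 proteins that hold them in the cytosol, and related kinase and export factors moved little. Of 14 tested, 2 rose and none fell, or 14.3% called against 27.9% of all tested genes, with a median log2 change of 0.02. At an unadjusted p under 0.05 in edgeR 1 was lower, and limma-voom called 1 lower and DESeq2 0. YWHAG, a 14-3-3 gene, rose by 0.12 ± 0.04 (SE) and GSK3B by 0.11 ± 0.04, and neither was called once library 2 or 3 of either group was left out, nor GSK3B once control library 1 was. With β-alanine library 1 left out, 3 genes of the list fell. With library 2 or 3 of either group left out, 0 rose. The fourth TFE family gene, TFEC, had at most 0.00999 CPM as a group mean and was not tested.

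Genes reported elsewhere as TFE targets, mainly of lysosome and autophagy function, were higher more often than lower. Of 32 listed, 31 were tested, of which 16 rose and 1 fell in edgeR, or 54.8% called against 27.9% of all tested genes. Of all tested genes, 14.1% rose and 13.8% fell. DESeq2 called 11 of the list higher and 0 lower, and limma-voom 17 and 1. The median log2 change was 0.16. The list was drawn up with earlier results of these data known, so its count is no independent evidence of direction. GABARAPL1 rose by a log2 of 0.54 ± 0.05 (SE). GLA, alpha-galactosidase A, had 48.3, 56.6 and 57.6 CPM after β-alanine and 39.5, 37.2 and 39.3 CPM in controls. The autophagosome gene MAP1LC3B had 167, 199 and 182 CPM after β-alanine and 143, 135 and 136 CPM in controls.

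Not every reported target moved with them. GPNMB, a lysosomal glycoprotein often used as a TFE3 readout, had 1.25, 1.42 and 1.44 CPM after β-alanine and 1.95, 2.23 and 1.84 CPM in controls, lower in each treated library (adjusted p = 0.0609 in edgeR). It rested on only 18, 39 and 48 reads after β-alanine and 36, 49 and 36 in controls, which limits its precision. The 1 target called as lower is a different gene. SQSTM1, the autophagy receptor p62, had 170, 216 and 226 CPM after β-alanine and 169, 175 and 168 CPM in controls. Its first treated library was at the control level, and SQSTM1 was not called (adjusted p = 0.137 in edgeR). It was called in 5 of 17 alternatives, among them edgeR without that library (adjusted p = 2.97e-11). The count of targets that rose was 9 with β-alanine library 2 or 3 left out, 8 with control library 2 left out and 10 with control library 3 left out. GABARAPL1, MCOLN1 and RHEB stand in another list above as well.

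**Figure D4:**
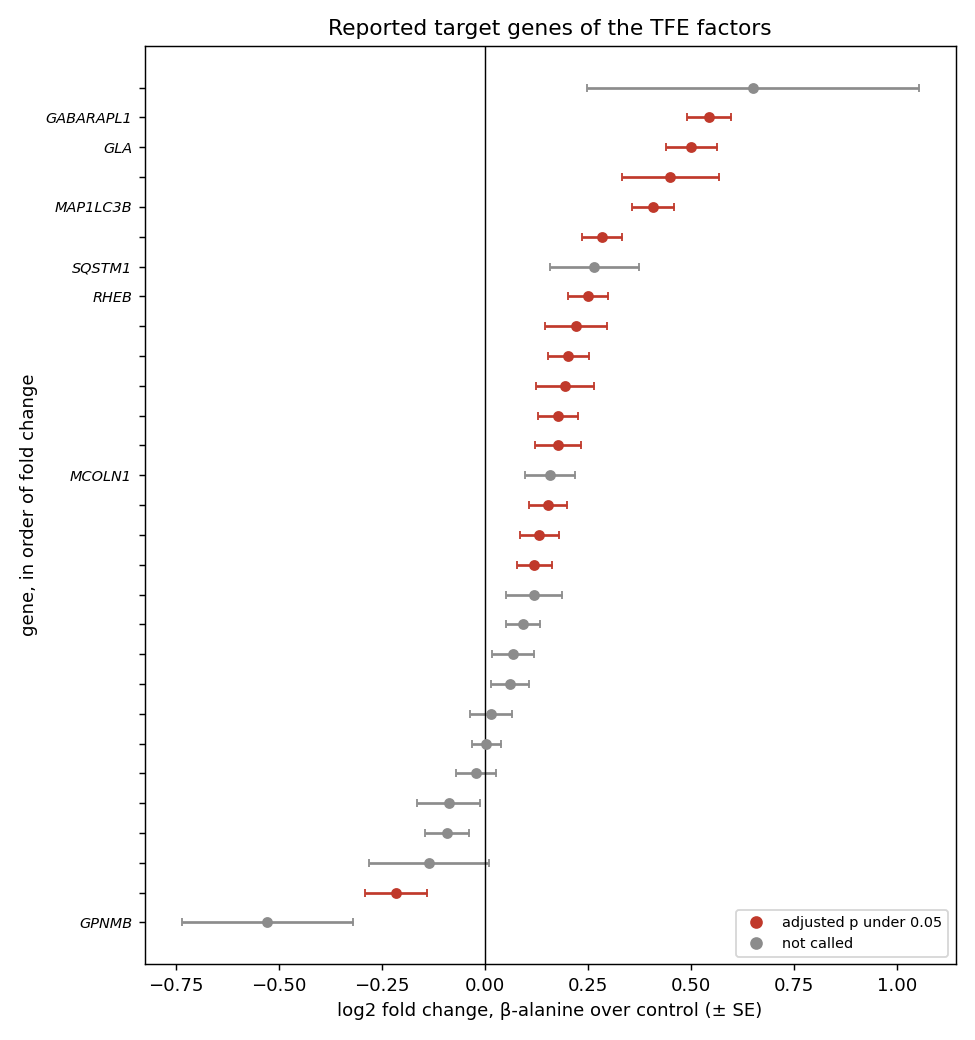
The log2 fold change with SE, β-alanine over control, of 29 of the tested genes reported as TFE targets, in order of size, with those named in the text labelled; red points passed an adjusted p of 0.05 in edgeR. 14 red points lie to the right of 0 and 1 to the left, the other 2 tested genes, both called as rises, are not drawn because they are not reported here, and GPNMB is the lowest, at -0.53.

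Genes whose 6 values were most like those of TFE3 were sought among 13851 genes with an average log2 CPM of at least 1, by the root mean square difference of log2 CPM taken relative to the control mean. The 5 nearest were C12orf57 (0.0229), SLC41A3 (0.0266), CHRNB1 (0.0331), NKIRAS1 (0.0350) and UBALD1 (0.0368). Their log2 changes lay between 0.41 and 0.44, and none of them is in a list above.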

How the data were processed

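RNA of 6 DMS114 libraries was measured, 3 per group; groups and replicate numbers came from the titles. The values the authors deposited are unnormalised counts of reads, listed by gene symbol. The submitters' processing notes name GRCh38, STAR 2.7.3a and featureCounts 2.0.1, and also Trimmomatic 0.39, bcl2fastq and DESeq2. The annotation, the settings and whether strand was used: not given in the sources used here.

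From these counts, filterByExpr kept 17331 genes, TMM scaled the libraries, and edgeR 4.0.16 (R 4.3.3) gave a robust two-sided quasi-likelihood test over all 6 libraries without covariates. Benjamini-Hochberg adjustment ran over all genes tested, with a threshold of 0.05. CPM uses TMM-scaled totals, and per-library log2 values add a prior count of 0.5. The script was tested on simulated data, where the share of false calls was above the threshold, so adjusted p-values close to it should be read with care. limma 3.58.1 and DESeq2 1.42.0 served as alternatives, beside other scalings, filters, a replicate block, thinning and leaving out each library. Figures used matplotlib 3.10.9.

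The members and gene lists were chosen with earlier results of these data known. Named genes were all members, up to 4 called genes with the smallest p in each list, 5 set genes (SESN2, MTOR, LAMTOR1, GPNMB and SQSTM1), and the 5 nearest to the called member with the smallest p. PMEL, CDK2, PRKAA1, PRKAB1, PRKAG1 and the cell markers were named after their values were seen. Promoters came from RefSeq, and lengths and overlaps from GENCODE 29. Some genes of the lists are counted but not reported here by name. Protein comparisons that had been planned were not made.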

Additional observations from a re-analysis of the deposited data

How the results depend on the processing

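RRAGD and TFE3 kept their direction and their call in all 17 alternatives, between 0.75 and 0.95 and between 0.40 and 0.48 on the log2 scale. The number of members that rose lay between 2 and 4 and the number that fell was 0 throughout. RRAGC lost its call in 8 alternatives, RRAGA gained one in 2. After thinning, chosen after seeing the data, FNIP1 was at -0.0058 and FNIP2 at 0.0023, both reversed. Whether replicate numbers pair the libraries was not settled. Same-numbered libraries correlated in their deviations at 0.101, -0.0015 and 0.172 over 13851 genes, and those of unlike number at -0.16 to 0.0294. β-alanine libraries 1 and 3 correlated best with the control of their own number, and β-alanine library 2 did not. With the replicate block, 3 members rose, and of the TFE phosphatase, kinase and anchor genes 4 rose and 1 fell; no member's call changed. At an adjusted p under 0.01, 1454 of all genes rose and 1391 fell. The same threshold left 10 rises and 0 falls among reported TFE targets, 0 rises for Ragulator, 0 rises and 1 fall for amino acid sensors, 0 falls for mTORC1 and 0 rises for the TFE anchor list. With DESeq2, 0 Ragulator genes rose, 1 sensor and 1 mTORC1 gene fell, 1 anchor gene rose and 0 targets fell. On library totals alone, 1 sensor and 1 mTORC1 gene fell, 4 anchor genes rose and 0 targets fell, and 56.2% of calls were rises, against 50.5% with TMM. Without a low-count filter, 1 sensor, 1 mTORC1 gene and 0 targets fell; with a minimum of 1 CPM, 1 anchor gene rose. Without robust shrinkage, 1 sensor fell and 1 anchor gene rose. After thinning, 1 sensor, 1 mTORC1 gene and 0 targets fell and 1 anchor gene rose. With limma-voom, 1 anchor gene fell. The cause was not tested. Leaving out each library gave 1501 to 3204 rises and 1473 to 3294 falls over all genes, 8 to 19 rises and 0 to 1 falls for targets, 0 to 1 rises for Ragulator, 1 to 2 rises and 0 to 1 falls for GATOR1, 0 to 1 rises and 1 to 2 falls for sensors, 0 to 2 falls for mTORC1, 3 to 5 rises for the Rag and folliculin modifiers, and 0 to 3 rises and 0 to 3 falls for the anchor list. A second set of gene lengths was not run. RRAGD rests on 68 to 94 reads per control library, which limits its precision.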

Other observations

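Of 7 neuroendocrine and lung cancer subtype markers tested, 3 rose and 1 fell, or 57.1% called against 27.9% of all tested genes, and 3 were not called. CHGA, chromogranin A of secretory granules, had 26.6, 31.4 and 28.5 CPM after β-alanine and 19.7, 21.6 and 17.5 CPM in controls. SYP, synaptophysin of synaptic vesicles, had 81.5, 87.8 and 89.6 CPM after β-alanine and 56.2, 62.9 and 64.0 CPM in controls. Both rose (adjusted p = 2.76e-05 and 8.68e-07 in edgeR), while NCAM1, a neural adhesion molecule, was at 1.48 ± 0.107 CPM in treated and 2.32 ± 0.291 CPM in control libraries (SD, n = 3 each) and was called as lower by edgeR (adjusted p = 0.0156) and limma-voom but not by DESeq2. Among mesenchymal transcripts, COL3A1, a fibrillar collagen, had 750, 660 and 667 CPM after β-alanine and 850, 896 and 883 CPM in controls. Of 4 osteoclast genes reported as TFE targets, 2 were tested, with 0 called and 0 at an unadjusted p under 0.05 in edgeR, and 0 by DESeq2 and limma-voom.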
